A study of Chlamydomonas reinhardtii with 8 samples.

Results

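The 101 transcript models described here had a high ratio of Cy5 over Cy3 on 1 array of the green alga *Chlamydomonas reinhardtii*. That array was the second of 2 that compared the dyes. The models are 101 of the 14557 on a 2-colour Agilent array, which carries 3 probes for each model. A model was taken when Cy5 exceeded Cy3 by at least 2.5 on the log2 scale for both probe 1 and probe 2 on the second label array, with Cy5 well above background, and when the mean ratio of both probes in strain cc3491 lay between -1 and 1. Models were left out by name where the study gives them the symbol ARS, ECP, SLT, LHC, ATS, SIR, SUOX, NIT or NII. This removed 4 models (ARS2, ATS2, SIR1 and NII1). The symbols stand for arylsulfatases, extracellular sulfur-limitation proteins, sulfate transporters, light-harvesting proteins and enzymes of sulfate and nitrate assimilation. Genes of related function with other symbols, such as the CysA-like SABC and the nitrate transport component NAR2, were not left out.

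Both label arrays carry the strain cc125 and a time of 24 h in both channels, and the methods describe identical RNA from sulfur-starved cells labelled with both dyes. The other 6 arrays hold the wild type cc3491, with RNA taken before starvation (T0) in Cy3 and RNA after the start of sulfur starvation in Cy5. All cultures grew in TAP medium with or without sulfur. The titles give 24 h for all 6 arrays, whereas the sample characteristics give 24, 48, 72, 96, 24 and 48 h for replicates 1 to 6, and the study counts technical as well as biological replicates among them. Of the 43705 transcript probes, those well above background in a channel numbered 2182 on replicate 1, 2465 on replicate 2, 16826 to 24466 on the 4 others, and 40518 and 43062 on the label arrays. There was 1 array of each label sample, so its values have no replicate error. On the second array 6.84% of models were at least 2-fold higher and 8.55% lower in Cy5 with both probes, against 0% and 0.0343% on the first. The labels of the second array are therefore uncertain, and a ratio of that array is reported as Cy5 over Cy3 and not as one condition over another.

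Nutrient starvation changes transcript levels of this alga widely. The cells take up and recycle the missing element, replace proteins that are costly in it and slow the cell cycle. Several of the named models belong to pathways that are well described in *C. reinhardtii*. Cytochrome c6 replaces the copper protein plastocyanin when copper is scarce, sulfoquinovose is the head group of a sulfolipid of chloroplast membranes, and core histones package newly made DNA. The replicated H2B genes of the alga encode near-identical proteins, which matters for the probes considered here.

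The values that chose the models are given first, as a description. On the second label array 153 of 14557 models (1.05%) passed the threshold with both probes. Of these, 48 fell outside the range set for cc3491, 26 of them with both probes above 1, 4 with both probes below -1 and 18 with only 1 probe outside. Among the 101 models the lower of both probe ratios ranged from 2.51 to 5.29 with a median of 3.00. It was between 2.5 and 3 for 52 models, between 3 and 4 for 40, between 4 and 5 for 7 and above 5 for 2. Just inside the threshold were model 178535 at 2.507, the selenium binding protein SBD1 at 2.516 and the haloperoxidase HAP1 at 2.521. Models 103211, 59574 and 206105, just outside, had 2.498, 2.485 and 2.476. Probes 1 and 2 of a model differed by a median of 0.27 on the log2 scale and by more than 1 for 15 models. Cy5 was saturated for at least 1 of these probes in 14 models, whose ratios are therefore of capped Cy5 signals. Both probes were saturated for CYC6, GSTS1, SABC and models 154723, 144472 and 157910, and 1 probe for HAP2, CPX1, SQD1, SBD1, CGL73, HTB1 and models 153895 and 59933. The Cy5 levels and ratios given for these models are as the scanner recorded them. Cy3 was not well above background for 3 probes of 2 models. Cy5 was at least 8.61-fold and at least 10.9-fold higher for probes 1 and 2 of model 140045, and at least 11.1-fold higher for probe 2 of model 196236, each processed Cy5 signal being set against the higher of the probe's own Cy3 signal and the lowest Cy3 signal well above background.

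**Figure D1:**
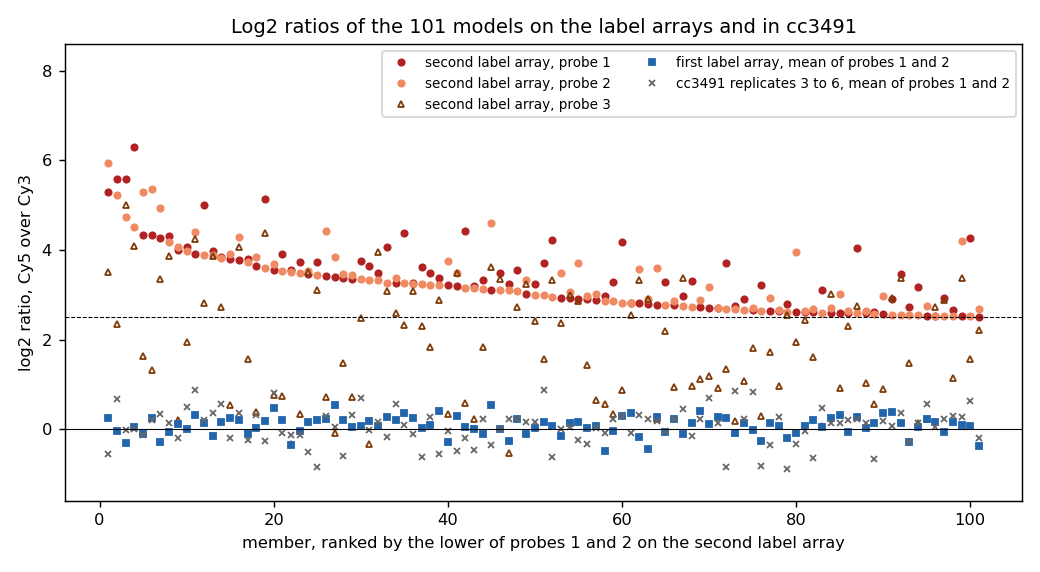
Log2 ratios of Cy5 over Cy3 (vertical axis) for the 101 models, ranked along the horizontal axis by the lower of probes 1 and 2 on the second label array. Circles are probes 1 and 2 and triangles probe 3 of that array, squares the first label array and crosses the mean of cc3491 replicates 3 to 6, both as means of probes 1 and 2, and the dashed line marks 2.5. The triangles spread from -0.52 to 4.999, while the squares stay between -0.49 and 0.55.

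Of the 101 models 23 had a gene symbol in the study's starvation tables, and a further model, 143696, was described there as the vanadium haloperoxidase HAP2. Those tables list models that changed in the study's nitrogen or sulfur starvation experiments. The sulfur experiment used cc3491, and whether its arrays include some analysed here is not known. A name by itself therefore marks a model as one that responded in those experiments. A match to a gene of the NCBI v5.5 assembly, through its older locus name, was found for 88 of the 101 models and for 12302 of all 14557.

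The haloperoxidases HAP2 and HAP1 belong to enzymes that oxidise halides with peroxide. They are neighbouring genes on chromosome 13 of that assembly, with no protein-coding gene between them. On the second label array HAP2 had ratios of 5.59, 4.73 and 4.999 for probes 1, 2 and 3, and HAP1 had 2.52, 4.20 and 3.38. On the first label array the means of probes 1 and 2 were -0.31 for HAP2 and 0.08 for HAP1. Neither was well above background in any channel of cc3491 replicates 3 to 6, where HAP2 had -0.50, -0.22, 0.36 and 0.27 and HAP1 had 0.14, -0.32, 0.73 and 0.57. Their passage through the cc3491 range thus rests on background signal. The probes of HAP1, shown because they are a case where 3 separate stretches gave high ratios, read in lower case throughout as they share no run of 15 bases:

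HAP1 probe 1: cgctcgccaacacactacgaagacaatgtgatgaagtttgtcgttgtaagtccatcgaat
HAP1 probe 2: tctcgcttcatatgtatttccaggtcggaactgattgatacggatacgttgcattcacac
HAP1 probe 3: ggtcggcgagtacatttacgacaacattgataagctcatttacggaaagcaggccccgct

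Histone H2B contributed 11 models, the largest family among the named ones: HTB10, HTB27, HTB2, HTB44, the variant HBV2, HTB14, HTB1, HTB5, HTB13, HTB7 and HTB31. With median signals minus local background in place of processed signals only 2 of the 11, HTB10 and HTB7, stayed members. HTB10 was highest, with ratios of 4.34, 5.37 and 1.31 for probes 1, 2 and 3. HTB27 had 3.41, 4.43 and 0.71. The 9 others lay between 2.57 and 3.35 for probe 1 and between 2.53 and 3.43 for probe 2. In all 11 models probe 3 was far lower, between 0.71 and 1.31. H2B genes are near-identical copies, and for the 5 H2B models covered by the portion of the design's specificity table used here, all 15 probes were listed as matching more than 1 transcript. Signal can therefore be shared among the copies, and the 11 models are not 11 independent measurements.

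The rule drew a line through a continuous family. All 27 models that the tables name as H2B were at least 2-fold higher in Cy5 for both probes 1 and 2, against 6.84% of all models. Probe 1 was at 2.5 or more for 25 of the 27 and probe 2 for 11, so probe 2 set which copies entered. The medians over the 27 models were 2.73, 2.26 and 1.01 for probes 1, 2 and 3 on the second label array and 0.19, 0.25 and 0.21 on the first. All 27 names come from a table of models that changed elsewhere, which is no independent evidence of their direction. For the other core histones the medians for probes 1 and 2 on the second array were 0.90 and 0.86 in 27 H2A models, 0.44 and 0.60 in 4 H3 models, of which HTV3 had 3.00 and 2.76, and -0.08 and 0.02 in 13 H4 models. HTV3 passed the threshold and was left out for its cc3491 means of 2.18 and 1.49. The H2A, H3 and H4 models were named in another of the study's tables, in which 18 of 45 symbols that could be compared with the first table stood at another model, and the split by histone was made after the values were seen.

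**Figure D2:**
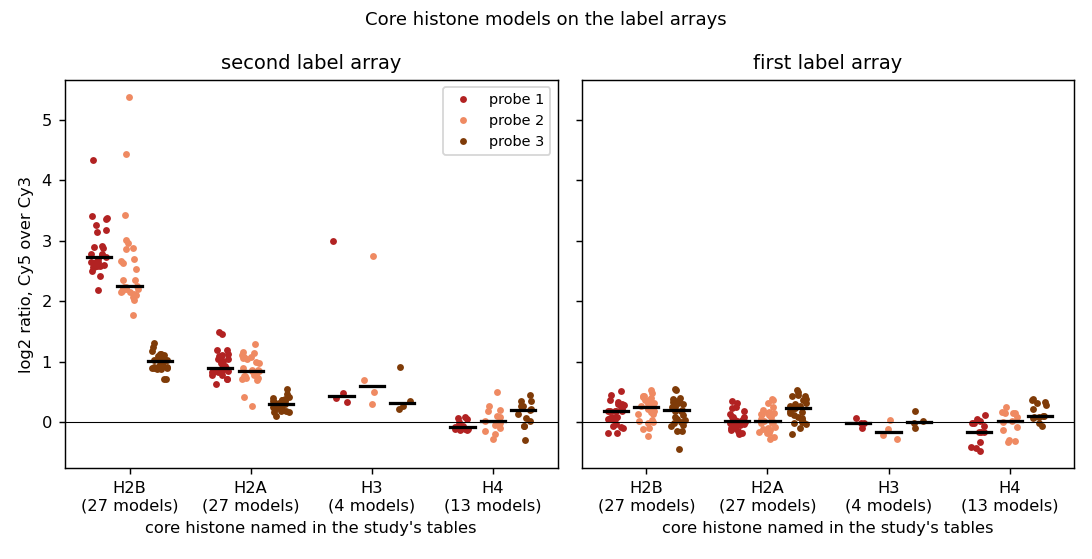
Log2 ratio of Cy5 over Cy3 (vertical axis) of core histone models by histone (horizontal axis) on the second (left) and first (right) label array. Points are models coloured by probe and bars their medians. On the left the H2B medians are 2.73, 2.26 and 1.01 for probes 1, 2 and 3, and on the right all 3 lie between 0.19 and 0.25.

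Probe 3 of the H2B models was not used by the rule, and in cc3491 it behaved differently from probes 1 and 2. Its median over the 27 models was 1.14, 1.08, 0.82 and 0.84 on replicates 3 to 6, whereas probe 1 gave 0.22, 0.18, 0.14 and 0.15 and probe 2 gave 0.23, 0.23, 0.27 and 0.22. For HTB10 probe 3 the 6 arrays gave 1.85, 1.39, 1.39, 1.42, 1.27 and 1.12, with Cy5 not well above background on the first 2. The fit over all 6 arrays after loess gave 1.43 ± 0.11 (SE), with a Holm-adjusted p of 0.0380 from limma's test. It was 1 of 6 probes called among 16732 (0.0359%). The call was lost when any of the 6 arrays was left out, with median centring, with normexp correction, with no filter on dim probes, with replicates 3 to 6 alone and with the slide as a random block. HTB1 probe 3 had 1.05 ± 0.10 (SE) and a Holm-adjusted p of 0.195, and a Benjamini-Hochberg adjusted p of 0.0110 in the same limma fit. Of the 26 H2B probes of this number that were tested, 1 passed the Holm threshold and 3 the Benjamini-Hochberg one, where 0.424% of all probes passed.

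The list of copper and iron genes contributed CYC6, which encodes cytochrome c6, and CPX1, coproporphyrinogen III oxidase of tetrapyrrole synthesis. CYC6 had ratios of 3.91, 4.41 and 4.23 for probes 1, 2 and 3 on the second label array. On the first label array its mean of probes 1 and 2 was 0.30. In cc3491 the mean of probes 1 and 2 was 1.36 and 1.76 on replicates 3 and 4 and 0.31 and 0.09 on replicates 5 and 6, with Cy3 below the mark for well above background on all 4 arrays. CYC6 was not tested between these pairs of arrays because it was not above background on all 4, so no difference is read from them. CPX1 had 3.26, 3.25 and 3.08 on the second label array, 0.25 on the first, and -0.13, -0.17, -0.07 and -0.04 in cc3491. Its 3 probes gave nearly equal ratios. The next gene on chromosome 2 was also a member, model 186566, with 3.77, 4.28 and 4.06. The list held 8 models, of which 4 were at least 2-fold higher for both probes on the second array, against 6.84% of all models, and none was so on the first. The 2 that were not members were models of FEA1, an iron-assimilating protein of the periplasm, with 1.93 and 2.84 in one and 3.84 and 2.20 in the other. CRD1, a cyclase of chlorophyll synthesis, had 1.74 and 0.55. The copper transporters CTR3 and CTR2 had 0.87 and 0.98 and -0.94 and -0.93, and the ferritin FER2 had 0.86 and 0.85.

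Sulfur was represented by SQD1, UDP-sulfoquinovose synthase of sulfolipid synthesis, and SABC, named as a CysA-like protein. SQD1 had ratios of 2.64 and 2.66 for probes 1 and 2 and 0.97 for probe 3. It gave 0.07 on the first label array and 0.30, 0.27, 0.30 and 0.19 on cc3491 replicates 3 to 6. SABC had 3.18 and 2.54 but 0.14 for probe 3, 0.04 on the first label array, and 0.06, 0.11, 0.27 and 0.14 in cc3491. The selenium binding protein SBD1 had 4.27, 2.52 and 1.58, and had the highest cc3491 values of these, with 0.66, 0.70, 0.44 and 0.76. The glutathione-S-transferase GSTS1, of a family that couples glutathione to reactive compounds, had 4.32, 4.17 and 3.87, with Cy5 saturated for probes 1 and 2. It gave -0.07 on the first label array and 0.25, 0.16, 0.04 and 0.08 in cc3491. Of the 11 sulfur genes in the study's table, all excluded here by name apart from OASTL1, 8 were at least 2-fold higher and 2 lower on the second label array, against 6.84% and 8.55% of all models, and none was so on the first. That list was chosen by the study for changes on related samples.

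Nitrogen was represented by NAR2, a component of nitrate and nitrite transport, with ratios of 4.05, 2.59 and 2.74. It gave 0.26 on the first label array and 0.33, 0.34, 0.41 and -0.17 in cc3491. Of 5 nitrogen transport models NAR2 alone was at least 2-fold higher for both probes, and NAR1.2 was lower, with -5.10 and -2.77. Of the 10 models in the study's list of nitrogen genes 4 were at least 2-fold higher for both probes and none was lower, against 6.84% and 8.55% of all models. NII1 was left out by name, and NIT1 also missed the threshold with probe 1, at 2.44. The lists for phosphate, amino acid uptake, cell wall, cilia, ribosomal proteins, fermentation, inorganic carbon, chaperones, starch and autophagy held no member, no model was found for the lipid list, and HAP1 entered the list for gametogenesis by its symbol alone.

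The other models with a product served several functions. YEE1, named as a membrane protein, had 4.34, 5.29 and 1.63. The model named GGH1, gamma-glutamyl hydrolase, in some of the study's tables and GLD2, glucose-6-phosphate dehydrogenase, in others is called GGH1 here, and its name is not settled. GGH1 had 3.55, 3.68 and 0.76 and was among the highest models on the first label array, at 0.46. In cc3491 GGH1 had 1.13 and 1.16 on replicates 3 and 4 and 0.61 and 0.37 on replicates 5 and 6. PGP3, phosphoglycolate phosphatase of photorespiration, had 2.75 and 2.69 but 0.17 for probe 3. Its cc3491 values of 0.98, 0.89, 0.63 and 0.93 were all positive. CGL73, a predicted protein, had 4.07, 3.27 and 3.09. A 3-hydroxyacid dehydrogenase (model 128576) had 2.82, 2.82 and 2.55, a D-isomer specific 2-hydroxyacid dehydrogenase (model 162449) 3.46, 2.55 and 3.38, a ferredoxin oxidoreductase (model 150382) 2.87, 3.02 and 0.66 and an AAA-ATPase domain protein (model 196074) 2.91, 3.72 and 2.85.

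**Figure D3:**
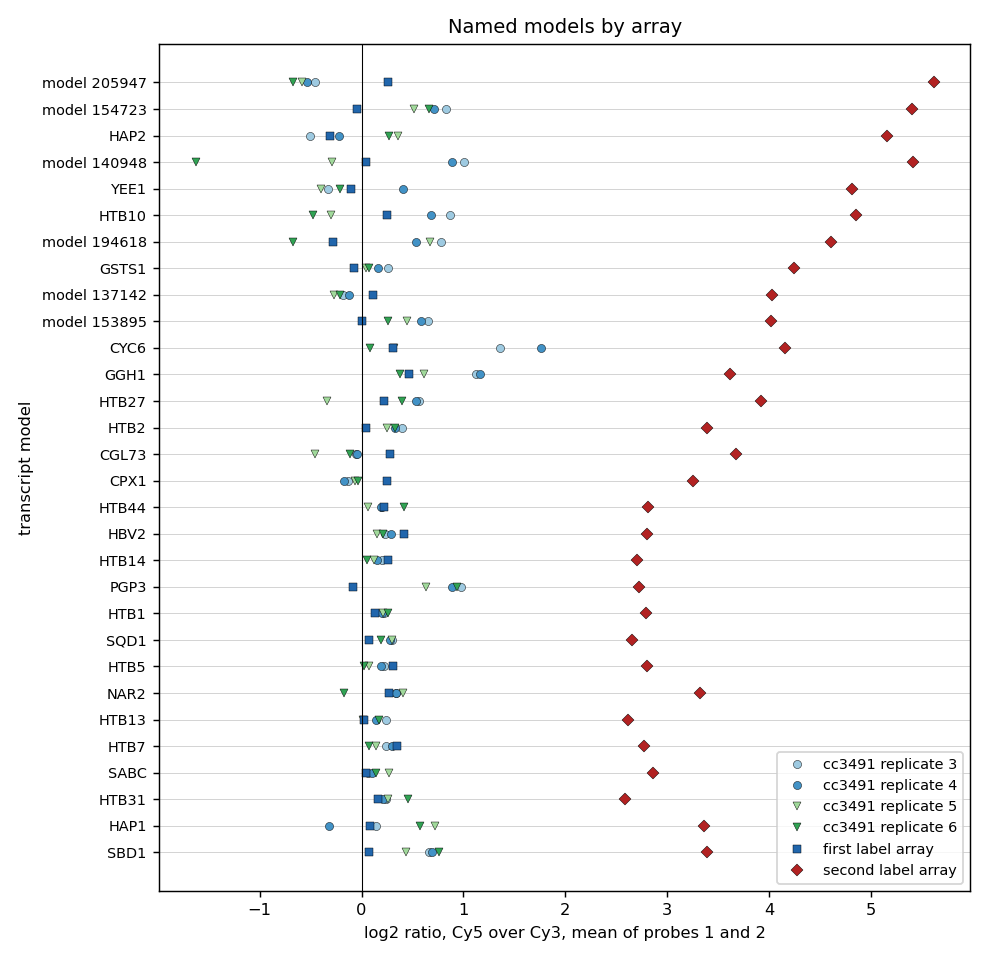
Mean log2 ratio of probes 1 and 2 (horizontal axis) for the models with a symbol and for the highest members (vertical axis), 1 point for each of cc3491 replicates 3 to 6, the first and the second label array. The second label array stands apart from the 5 other arrays for every model shown. For cc3491 replicates 3 to 6 the choice of models largely fixed this. Among the models with a symbol, CYC6 and HTB10 have the widest gaps between replicates 3 and 4 and replicates 5 and 6. For each of these models only 4 of the 8 readings of probes 1 and 2 on those replicates were well above background.

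Most of the highest models had no name. Model 205947, a hypothetical protein, was first with 5.29, 5.94 and 3.52 for probes 1, 2 and 3. It gave 0.26 on the first label array and -0.45, -0.53, -0.58 and -0.67 in cc3491, below 0 on all 4. Model 154723 had 5.58, 5.22 and 2.35, with Cy5 saturated for both probes 1 and 2. It was at 0.83, 0.71, 0.52 and 0.66 in cc3491 and at -0.04 on the first label array. Model 140948 had the highest single ratio, 6.30 for probe 1, with 4.52 and 4.09 for the other probes. Its cc3491 values ran from 1.01 and 0.89 to -0.29 and -1.62, so its mean of 0.00 hides a wide spread. Model 194618 had 4.28, 4.94 and 3.35, model 137142 4.002, 4.06 and 0.20, and model 153895 4.06, 3.98 and 1.95.

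The third probe separated the models further. It was not part of the rule but lies on the same array. The study reports that probes carried over from the first-generation array gave lower ratios for changed genes, and left them out of its analysis. Which probe numbers hold those probes was not established here. In models 183444, 184005, 187796 and 190619, probe 2 came from another source list than probe 3. Probe 2 had 50, 53, 55 and 57 bases in these models, and probe 3 had 60. Low ratios of probe 3 are therefore not put down to older probes. Probe 3 was at 2.5 or more for 38 of the 101 models, between 1 and 2.5 for 31 and under 1 for 32. Over all models 0.934% had a probe 3 ratio of at least 2.5 and 7.3% of at least 1. Cy5 of probe 3 was well above background for 30 of the 32 models under 1, and 4 models had a negative ratio. The median over the members was 1.83, against 0.05 for all models.

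Probes of a model were not always separate. Of the 6 members whose probe sequences were in the portion of the probe list used here, 3 had probes 1 and 2 that overlap. Their probes share a run of 21 to 53 bases, and over that run both probes read the same stretch of the transcript. They are shown to make the sharing visible, with the common run of probes 1 and 2 in capitals:

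190539 probe 1: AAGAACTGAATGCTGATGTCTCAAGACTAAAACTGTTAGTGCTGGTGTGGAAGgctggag
190539 probe 2: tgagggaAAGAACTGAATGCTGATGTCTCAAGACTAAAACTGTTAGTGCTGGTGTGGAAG
190539 probe 3: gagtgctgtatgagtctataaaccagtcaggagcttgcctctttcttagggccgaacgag
183444 probe 1: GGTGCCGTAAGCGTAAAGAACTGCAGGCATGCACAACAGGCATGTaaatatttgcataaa
183444 probe 2: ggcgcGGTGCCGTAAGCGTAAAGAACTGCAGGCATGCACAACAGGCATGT
190619 probe 1: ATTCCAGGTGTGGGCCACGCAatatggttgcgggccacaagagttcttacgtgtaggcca
190619 probe 2: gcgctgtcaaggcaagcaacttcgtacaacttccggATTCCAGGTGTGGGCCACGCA

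In model 190539 the overlapping probes had ratios of 3.21 and 3.75 and the separate probe 3 had 0.34. In model 183444 the ratios were 3.46, 3.53 and 3.51, and probe 3, not shown, also holds the whole run of 45 bases, so none of its probes is separate. In model 190619, where 21 bases are shared, they were 3.76, 3.34 and 2.48. A pair of probes past the threshold is thus not always 2 independent readings of a transcript. Genomic positions of the probes are not given here because the array was built on JGI 3.1 models and the annotation used is of another assembly.

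The first label array, which carries the same labels and was not used by the rule, gave low ratios. Over the 101 models the mean of probes 1 and 2 ranged from -0.49 to 0.55 with a median of 0.09, where the median of all models was 0.00. No member had a probe 1 or 2 ratio beyond 1 in either direction, 86 had both within 0.5, and over all models 0 of 14557 (0%) were at least 2-fold higher and 5 (0.0343%) lower with both probes. The mean was above 0 for 71 members, 70.3% of them, and for 50.1% of all models. The highest were models 186833, 140045 and GGH1 at 0.55, 0.53 and 0.46, and the lowest models 205758, 130920 and 178535 at -0.49, -0.45 and -0.38. Both probes were well above background there for 95 of the 101 models. With 1 array each, the difference between the label arrays was not tested.

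Signal by channel is given as a description, since the members were chosen for high Cy5 over Cy3 on the second array. Each signal was expressed as log2 relative to the 75th percentile of its channel. The median over the members was -1.07 in Cy3 and -1.05 in Cy5 of the first array, -0.25 in Cy3 of the second and 3.26 in its Cy5. Relative to the first array's mean, Cy3 of the second was higher by a median of 0.30 and Cy5 by a median of 3.68. The first array's level lay nearer to Cy3 than to Cy5 of the second for 198 of 202 member probes (98.0%), and for 99 of 101 models. It did so for 64.6% of all probes 1 and 2, but for 481 of the 486 that passed 2.5 in the same direction. Those 486 include the 202 member probes, and the high share was not particular to the members. For probes past 2.5 in the other direction, lower in Cy5, it was 91.1% of 505. The 2 exceptions were models 140045 and 196236, whose Cy3 signals on the second array were -7.14 and -6.41 and not well above background for both probes of the former and 1 of the latter.

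Some models were brighter in both channels of the second array. HTB14 had -2.501 and -2.23 in Cy3 and Cy5 of the first array and 3.27 and 5.99 in those of the second. Only 1 of its probes 1 and 2 was well above background on the first array. HTB2 had -1.91 and -1.86, then 2.32 and 5.74. CYC6 had -1.79 and -1.48, then 2.33 and 6.51, and HAP2 had -3.74 and -4.04, then 0.00 and 5.18, with Cy5 of the second array saturated for both probes of CYC6 and 1 of HAP2. By contrast SQD1 had 3.17 and 3.25 on the first array and 2.77 in Cy3 of the second, with 5.45 in Cy5 alone standing apart, and SABC had 3.79 and 3.83, then 3.56 and 6.44, with Cy5 saturated for 1 probe of SQD1 and both of SABC. NAR2 had -3.11 and -2.83, then -3.31 and 0.03. The arrays differ in label sample and hybridisation together, which cannot be told apart with 1 array each.

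**Figure D4:**
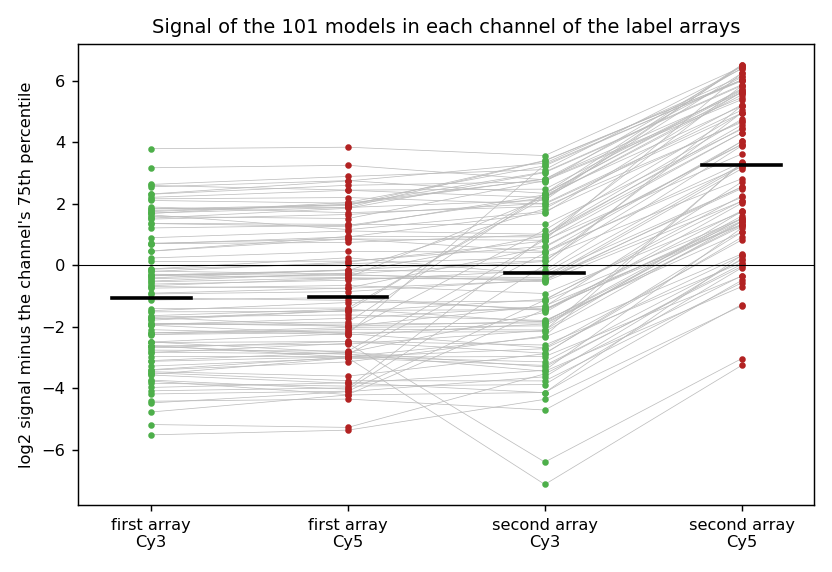
Log2 signal minus the 75th percentile of the channel (vertical axis), as the mean of probes 1 and 2, for the 101 models in the 4 channels of the label arrays (horizontal axis). Points are models, grey lines join a model and bars are medians. The medians are -1.07, -1.05, -0.25 and 3.26, the last of which the choice of models raises.

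In cc3491 the range of the mean was set by the rule and is described without a test. Both probes had signal well above background, in Cy3 or Cy5, on all of replicates 3 to 6 for 73 of the 101 models, on some for 19 and on none for 9. The 9 were HAP1, HAP2 and models 184005, 205695, 167849, 205781, 178146, 172967 and 130920. The 73 measured models had means from -0.89 to 0.87, and 54 of them lay within 0.5 of 0. A ratio of the same sign on all 4 arrays was seen in 53, of which 29 were positive and 24 negative, and the median SD over the 4 arrays was 0.11. The median of all members was 0.17, 0.19, 0.02 and 0.01 on replicates 3 to 6. On replicates 1 and 2 only 7 and 10 of 202 member probes were well above background, and their medians of 0.06 and -0.03 are of background signal.

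Replicates 3 and 4 differ from 5 and 6 in slide and in labelled time together, a difference that the rule did not use. No member probe was called between them by limma's test, and neither was any of the 16454 probes tested, with Holm or with Benjamini-Hochberg adjustment (0% in both). With 2 arrays against 2 the Holm count of 0 says nothing about whether probes changed. At an unadjusted p under 0.05 there were 4103 of these probes, 31 of them among the 156 tested member probes 1 and 2. Against T0 none of 157 tested member probes 1 and 2 was called over the 6 arrays, which the range set by the rule largely fixed. An unadjusted p under 0.05 was found for 43 of them and for 5732 of all 16732 probes. With replicates 3 to 6 alone the count of 0 among members was fixed by the rule, which uses those arrays, while 1.51% of all probes were called, so nothing is read from it.

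By position, members lay on 14 chromosomes of the v5.5 assembly. Chromosome 6, with 1592 protein-coding genes, held 16 members. Chromosomes 12 and 16, with 1781 and 1300 such genes, held 9 each. The 16 on chromosome 6 include HTB10, HTB14, HTB13, HTB7 and HTB31, H2B copies whose signal can be shared. Whether members cluster by chromosome was not tested. Next to each other with no gene between were HAP1 and HAP2, CPX1 and model 186566, and models 167849 and 167850 on chromosome 7. With 1 gene between lay HTB14 and HTB13, and SABC and HTB7, both on chromosome 6. Model 167849 had ratios of 4.37, 3.25 and 2.33 on the second label array and model 167850 had 2.66, 2.70 and 1.81. Of the neighbours HAP2 and HAP1, the former was highest for probe 1 and the latter for probe 2.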

How the data were processed

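RNA was measured on 8 arrays of 2 colours, and the arrays of other experiments in the study are not analysed here. The authors deposited scanner output of Agilent Feature Extraction 10.7.3.1, whose processed intensity per spot is corrected for background and dye. The same files hold the authors' median intensity, log10 ratios and marks per spot, and the deposited value table equals the log10 ratio. Repeat spots of a probe were averaged as log2 ratios.

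The members and gene lists were chosen with earlier results of these data known, and the members by the rule given in the report. Named were the 10 highest members, up to 25 others with a symbol or product, those at the threshold, the extremes of the first label array and neighbouring members. Names come from 3 tables of the study. Where a symbol in 1 of them disagreed with another, the latter was kept. HBV and HTV were counted with the histones.

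limma 3.58.1 (R 4.3.3) tested cc3491 log2 ratios after loess within the array, with Holm adjustment at 0.05 and at least 2-fold change, over probes well above background in a channel on at least 4 of 6 arrays. Technical replicates among these arrays make the p-values too small. Scripts were tested on simulated data. Alternatives changed background correction, normalization, thresholds, arrays and marked spots.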

Additional observations from a re-analysis of the deposited data

Results flagged for a closer look

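Of 32 values examined over the 6 cc3491 arrays, the median ratio of the members, the number of member probes above background and the named models, 5 had 1 array far from the other 5. About 1 in 20 such groups would be picked by chance, and in each case the distant array was replicate 1 or 2, on which few member probes were well above background. As mean log2 ratios of probes 1 and 2, HTB2 had -0.13 on replicate 1 against 0.25 to 0.40 on the others, and HTB14 had 0.70 on replicate 1 against 0.04 to 0.20. SQD1 had 0.93 on replicate 1 against 0.11 to 0.30. CPX1 had -0.63 on replicate 2 against -0.17 to -0.04, and HTB1 had -0.46 on replicate 2 against 0.05 to 0.26.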

How the results depend on the processing

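The count of 101 members depended on the treatment of the signals. It was 51 with normexp and loess, of which 43 were shared, 46 with median signals minus local background, of which 42 were shared, 228 at a threshold of 2, 49 at a threshold of 3, 66 with the cc3491 mean within 0.5 and 36 where probe 3 had to pass too. Every member stayed above 0 for both probes on the second label array under each treatment of the signals run, and with normexp 84 stayed at least 2-fold higher. Leaving out 1 of replicates 3 to 6 gave 96 to 102 members. The members' median on the second label array fell from 3.29 to 2.52 with normexp and loess. Of 11 H2B members 10 were kept with normexp and 2 with median signals.

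In cc3491 against T0, 6 probes were called, 71 with Benjamini-Hochberg adjustment, 1 with normexp and loess, 3 with median centring, 252 with replicates 3 to 6 alone and 1 to 9 with 1 array left out. Between replicates 3 and 4 and replicates 5 and 6 the count was 0, 4 with normexp and loess, and 0 with any 1 array left out. The cause of these changes was not tested. No paired analysis was possible because replicate numbers name arrays of different strains in the groups and so pair no samples across them. Dim signals limit replicates 1 and 2. On cc3491 replicates 3 to 6 they also limit the 9 members never well above background and the 19 that were so only in part. The alternatives without H2B models and with members above background in cc3491 were chosen after seeing the data. They moved no label-array median computed for them by more than 0.095. That value is the SD of the members' median over cc3491 replicates 3 to 6, which the rule held near 0. It is no replicate error of the label arrays.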
